A study of Mus musculus with 4 samples.

Results

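The mitochondrial genome of the mouse encodes 7 subunits of respiratory complex I, and their messenger RNAs are named mt-Nd1, mt-Nd2, mt-Nd3, mt-Nd4, mt-Nd4l, mt-Nd5 and mt-Nd6. They were taken as all gene symbols starting with mt-Nd in a table of single direct RNA nanopore reads, keeping reads with a poly(A) tail length above 0. This gave 7 of the 13831 symbols of the table and 13270 of its 1903919 reads; 1 further read of these genes had no tail length above 0 and was left out. J1 mouse embryonic stem cells, grown in serum with LIF and given no treatment, were the source of 4 libraries: 2 of wild-type cells (WT 1 and WT 2) and 2 of cells knocked out for Mov10, an RNA helicase (KO 1 and KO 2). The study asked how long the tails of transcripts were in each genotype. Where 4 values stand together, they are in the order WT 1, WT 2, KO 1, KO 2. The labels do not say how the knockout was made, whether it is 1 clone, or whether the libraries of a genotype came from separate cultures, so p-values measure only the spread between these libraries, which may be technical.

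Complex I passes electrons from NADH to ubiquinone and pumps protons across the inner mitochondrial membrane. Its mitochondrially encoded subunits form the membrane arm, and all of its other subunits are made from nuclear genes. Both strands of the mitochondrial genome are copied into long precursors, which are cut, mostly at the tRNAs that lie between the genes, and the released messenger RNAs receive tails from the mitochondrial poly(A) polymerase Mtpap. These tails are made apart from those of nuclear transcripts, and in several mitochondrial messenger RNAs they complete the stop codon.

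The libraries held 351133 to 683239 reads. Mov10 had 26, 14, 0 and 1 reads. All 10 embryonic stem cell markers examined, Pou5f1, Nanog and Sox2 among them, had reads in every library, at a summed 9565, 9691, 8307 and 7246 reads per 1000000 reads (RPM). The collagen genes and other feeder fibroblast markers had 0 reads, except for Thy1. Summed levels of the fibroblast, endoderm, mesoderm and neural lists did not exceed 14.0 RPM in any library. None of the mt-Nd genes was placed in any of the 3 classes of Mov10 targets and non-targets of the authors' deposited table.

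Tails of the complex I messenger RNAs were short and close to each other in length. The median over all their reads was 44.1, 47.8, 47.8 and 48.9 nt. Reads of the other mitochondrially encoded messenger RNAs (mt-Co1, mt-Co2, mt-Co3, mt-Atp6 and mt-Cytb) had medians of 57.8, 58.5, 58.0 and 60.4 nt in the same order, and reads of all symbols without the mt- prefix had 100.1, 107.9, 108.2 and 100.7 nt. The complex I messenger RNAs thus had the shortest tails of the 3 sets in each of the 4 libraries. Tails of 30 to under 60 nt made up 80.8, 72.1, 81.0 and 75.7% of their reads. Only 144 of the 13270 reads had 100 nt or more, and the longest tail, 437 nt, was on a mt-Nd4 read of WT 1.

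**Figure D1:**
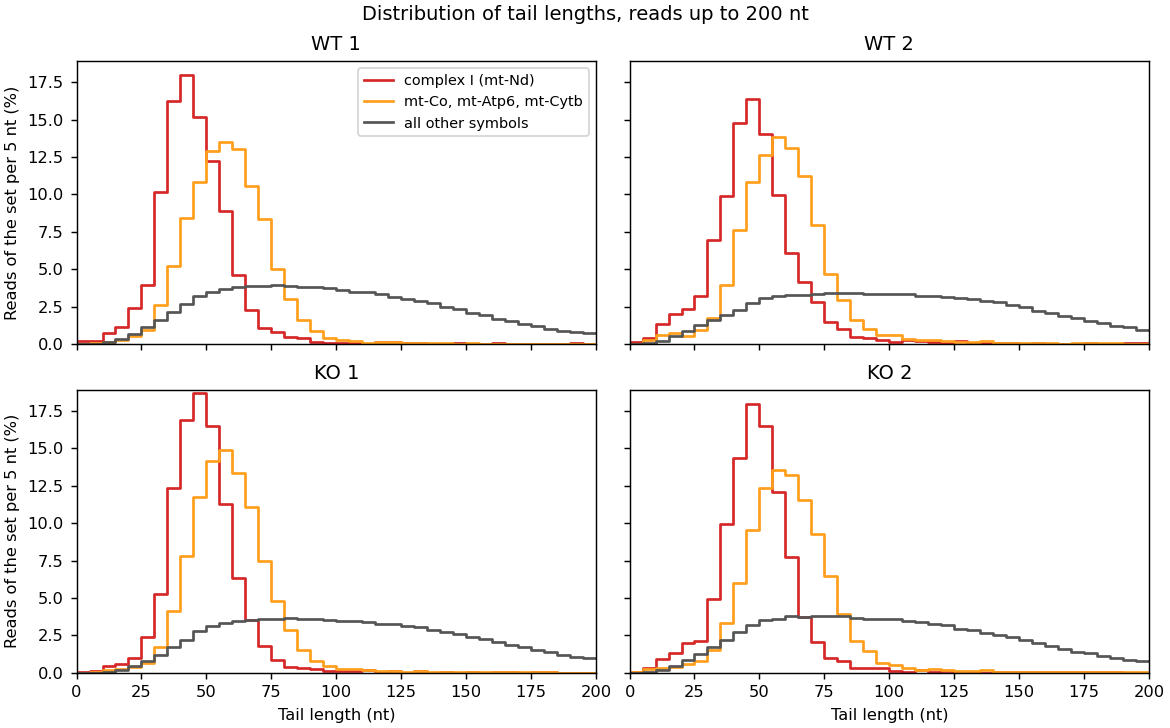
Share of reads per 5 nt of tail length (y axis, percent of the reads of the set) against tail length in nt (x axis; longer tails are not drawn), 1 panel per library, for the complex I messenger RNAs, the other mitochondrially encoded messenger RNAs and all other symbols. The complex I reads form a narrow peak with medians from 44.1 to 48.9 nt, to the left of the other mitochondrial reads, while the remaining reads spread over a broad range with medians from 100.1 to 108.2 nt.

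Of the subunits at the junction of the membrane arm with the peripheral arm, ND1 lines the path by which ubiquinone enters. Its messenger RNA, mt-Nd1 (ENSMUSG00000064341.1), had a median tail of 42.7 nt in WT 1, with an exact 95% interval for the median from 41.8 to 43.5 nt. In WT 2 the median was 46.2 nt (45.4 to 47.1 nt). KO 1 had 46.5 nt (45.9 to 47.0 nt) and KO 2 had 48.2 nt (47.6 to 48.8 nt). These intervals are from order statistics and cover read sampling only. Both KO libraries thus lay above both WT libraries, but KO 1 and WT 2 differed by less than their intervals.

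ND3 carries a loop near the same junction. mt-Nd3 (ENSMUSG00000064360.1) had the longest tails of the complex I messenger RNAs, with medians of 48.5, 55.0, 53.8 and 54.1 nt. WT 1 was low, the other 3 libraries lay between 53.8 and 55.0 nt, and the genotypes overlapped.

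ND6 sits beside ND1 and is the one subunit here encoded on the opposite strand; in human cells its messenger RNA is known for having little or no tail. In these data mt-Nd6 (ENSMUSG00000064368.1) had 57, 62, 82 and 91 reads, with median tails of 36.9, 38.6, 38.7 and 42.6 nt. These were the shortest medians of the set in WT 1, WT 2 and KO 1, and the second shortest in KO 2, after mt-Nd5. The poly(A) selection before sequencing keeps only molecules with a tail, so untailed mt-Nd6 molecules could not be seen. mt-Nd5 and mt-Nd6 are neighbours in the RefSeq annotation (GRCm38.p6), and the table records no strand, so reads under mt-Nd6 cannot be told apart from reads of the opposite strand.

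ND4L is a small subunit between ND6 and ND2, and it is known to be translated from the same messenger RNA as ND4. mt-Nd4l (ENSMUSG00000065947.3) had 1 read in WT 1, with a tail of 41.2 nt, 1 read in KO 1, with a tail of 14.3 nt, and 0 reads in WT 2 and KO 2. The zero counts allow up to 8.54 RPM in WT 2 and 6.98 RPM in KO 2 (3 counts of the library). Of 3337 reads under either symbol, 0.0599% were named mt-Nd4l (exact 95% binomial interval 0.00726 to 0.216%). Whether reads named mt-Nd4 include the mt-Nd4l frame was not tested, so these counts give no level for ND4L coding RNA. mt-Nd4l had too few reads for the tests.

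ND2, ND4 and ND5 are the antiporter-like subunits of the proton-pumping arm. mt-Nd2 (ENSMUSG00000064345.1) had medians of 41.8, 43.0, 43.4 and 43.8 nt. Its 4 medians spanned the smallest range of the set, with an SD of 0.873 nt (n = 4).

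mt-Nd4 (ENSMUSG00000064363.1) had 46.7, 50.6, 49.8 and 50.7 nt. Its tails were low in WT 1 alone, as those of mt-Nd3 were. mt-Nd5 (ENSMUSG00000064367.1), with 55 to 65 reads per library, had 43.3, 44.2, 44.9 and 40.0 nt. It was the one gene of the set with its shortest median in KO 2, where the exact 95% interval ran from 36.8 to 44.6 nt and overlapped those of the other libraries.

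**Figure D2:**
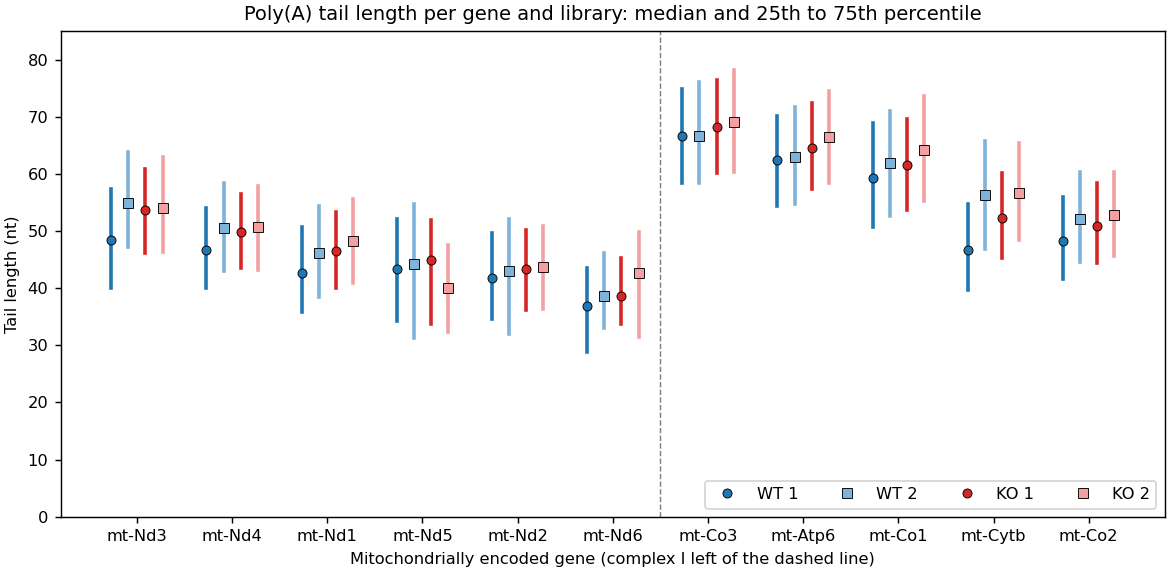
Tail length in nt (y axis) of each mitochondrially encoded gene (x axis) in each library; points are medians and bars run over the interquartile range. The 6 complex I genes with enough reads have medians from 36.9 nt (mt-Nd6 in WT 1) to 55.0 nt (mt-Nd3 in WT 2), and the other genes reach 69.1 nt (mt-Co3 in KO 2).

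Ordered by the mean of the 4 library medians, the tails ran from mt-Nd3 (52.8 nt ± 2.94, SD, n = 4) through mt-Nd4 (49.5 nt ± 1.89, SD, n = 4), mt-Nd1 (45.9 nt ± 2.32, SD, n = 4), mt-Nd5 (43.1 nt ± 2.15, SD, n = 4) and mt-Nd2 (43.0 nt ± 0.873, SD, n = 4) to mt-Nd6 (39.2 nt ± 2.41, SD, n = 4). The ranges of all 5 pairs of neighbours in this order overlapped over the 4 libraries. Within libraries the order was steadier: 12 of the 15 pairs of genes had the same order in every library. mt-Nd3 exceeded mt-Nd4 in 4 of 4 libraries, by 3.38 nt ± 1.13 (SD of the difference, n = 4), and mt-Nd4 exceeded mt-Nd1 in 4 of 4, by 3.57 nt ± 0.809 (SD of the difference, n = 4). mt-Nd2 exceeded mt-Nd6 in 4 of 4. The 3 pairs that changed order all involved mt-Nd5, which differed from mt-Nd2 by 0.133 nt ± 2.58 (SD of the difference, n = 4).

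A tail length could be compared with those of 1935 genes that had at least 20 reads in each library; 6 of the 7 complex I genes were among them, all except mt-Nd4l. Counted from the shortest mean of the library medians, mt-Nd6 ranked 1, mt-Nd2 ranked 2, mt-Nd5 ranked 3, mt-Nd1 ranked 4, mt-Nd4 ranked 5 and mt-Nd3 ranked 9. The order at the short end was nearly the same in each library: mt-Nd6 ranked 1 in WT 1, WT 2 and KO 1 and 2 in KO 2, where mt-Nd5 ranked 1. The other mitochondrially encoded genes held ranks 7 (mt-Co2), 10 (mt-Cytb), 11 (mt-Co1), 13 (mt-Atp6) and 16 (mt-Co3). The library medians of mt-Nd3 and mt-Nd4 overlapped with those of mt-Co2 (51.0 nt ± 1.96, SD, n = 4) and mt-Cytb (53.0 nt ± 4.60, SD, n = 4). Those of mt-Nd1 overlapped with those of mt-Cytb. The 2 sets of mitochondrial genes thus did not separate gene by gene.

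The tails were also uniform in length. The interquartile range over reads, averaged over the 4 libraries, was 14.3 nt for mt-Nd4, 14.5 nt for mt-Nd6, 14.7 nt for mt-Nd1, 15.9 nt for mt-Nd2, 16.3 nt for mt-Nd3 and 18.7 nt for mt-Nd5. The median of this range over the 1924 tested genes without the mt- prefix was 74.4 nt. mt-Nd4 ranked 1 of 1935 from the narrowest, mt-Nd6 ranked 2, mt-Nd1 ranked 3, mt-Nd2 ranked 6, mt-Nd3 ranked 9 and mt-Nd5 ranked 16. The range was also taken as a percent of the median. On that scale the complex I genes had from 28.916% (mt-Nd4) to 43.2% (mt-Nd5), against a median of 71.9% over the genes without the prefix, and ranked from 8 (mt-Nd4) to 23 (mt-Nd5) of 1935. mt-Atp6 (25.0%), mt-Co3 (25.2%), mt-Co1 (28.7%) and mt-Co2 (28.901%) had lower means than any complex I messenger RNA by this measure. For mt-Co1 and mt-Co2 the difference from mt-Nd4 was smaller than the spread between libraries, and in WT 1 mt-Co1 (30.6%) was above mt-Nd4 (29.986%).

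**Figure D3:**
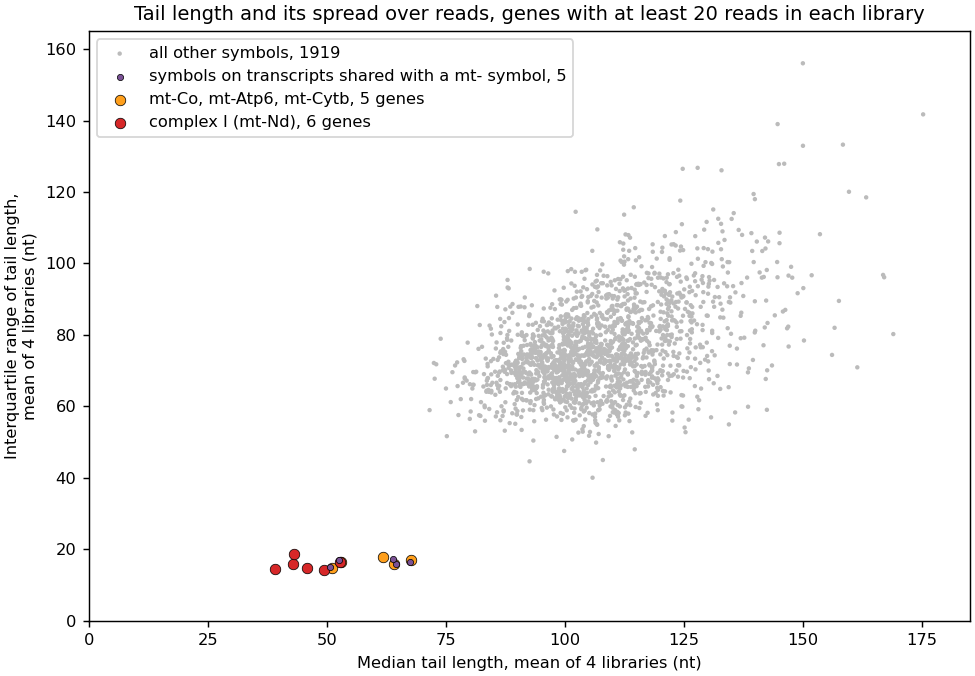
Interquartile range of tail length over reads (y axis, nt) against median tail length (x axis, nt), each the mean of 4 libraries, for 1935 genes. The 6 complex I genes lie at medians of 39.2 to 52.8 nt and ranges of 14.3 to 18.7 nt with the 5 other mitochondrially encoded genes and 5 symbols on transcripts shared with them, apart from the cloud of all other genes, whose shortest median is 71.6 nt and narrowest range 40.0 nt.

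The symbols outside the mitochondrial genome whose tail lengths were nearest to the median profile of the 6 complex I genes were Gm28661, Gm28438, Gm29216, Gm10925 and Gm28437, at root mean square log2 distances of 0.18, 0.23, 0.51, 0.52 and 0.59 over the 4 libraries. All 5 lay on transcripts that also carried reads of a mitochondrially encoded symbol. Gm28438 had 91.4% of its 268 reads on the main transcript of mt-Nd3. Its median tails were 47.5, 53.0, 53.3 and 56.6 nt, on 40 to 117 reads per library. Like those of mt-Nd3 they were shortest in WT 1, but they were longest in KO 2 and those of mt-Nd3 in WT 2. Gm28661 had 88.7% of its reads on the main transcript of mt-Co2, Gm10925 81.4% on that of mt-Atp6, Gm28437 75.9% on that of mt-Co3, and Gm29216 52.0% on that of mt-Co1. Reads on such shared transcripts cannot be attributed to 1 symbol with certainty. Among tested symbols without such transcripts, a filter set once these names had been seen, Pfdn6, which encodes a subunit of the prefoldin chaperone, was nearest, at a log2 distance of 0.67, with medians of 72.9, 73.2, 67.6 and 72.6 nt and a mean interquartile range of 59.0 nt.

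The sharing touched the complex I genes unequally. On the main transcript of mt-Nd3, 12.9% of reads had another symbol, 245 of them Gm28438, with a median tail of 53.8 nt against 53.7 nt for the reads named mt-Nd3. On the main transcript of mt-Nd4 the share was 0.359%, and on those of mt-Nd1 and mt-Nd2 it was 0.110% and 0.0750%. mt-Nd5 had 1 read of another symbol on its transcript and mt-Nd6 had 0. The read numbers given for mt-Nd3 count reads under its own symbol only.

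Short tails, under 30 nt, split the set. mt-Nd6 had such tails on 28.1, 16.1, 18.3 and 18.7% of reads, a mean of 20.3% ± 5.30 (SD, n = 4), and mt-Nd5 had 16.4, 23.1, 17.7 and 23.8%, a mean of 20.2% ± 3.74 (SD, n = 4). mt-Nd2 had 12.9, 21.1, 13.0 and 13.4% in the same order, a mean of 15.1% ± 3.99 (SD, n = 4). These 3 genes ranked 1, 2 and 3 of 1935 for this share, where the median over the genes without the mt- prefix was 2.55%. mt-Nd1 had 7.47% ± 2.98 (SD, n = 4), while mt-Nd4 had 3.90% ± 0.903 (SD, n = 4) and mt-Nd3 had 3.20% ± 1.03 (SD, n = 4). All 4 libraries of mt-Nd2 lay above all 4 of mt-Nd1, and every other pair of neighbours in this order overlapped. The small read numbers of mt-Nd5 and mt-Nd6 made single values wide: the 95% Wilson interval of mt-Nd6 in WT 1 ran from 18.1 to 40.8%.

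The modal class of 10 nt was 40 to 50 nt for mt-Nd1, mt-Nd2, mt-Nd4 and mt-Nd5 over the reads of all libraries, 50 to 60 nt for mt-Nd3 and 30 to 40 nt for mt-Nd6. It held 35.8% of the reads of mt-Nd1, 33.7% of mt-Nd4, 33.1% of mt-Nd3, 33.0% of mt-Nd2, 30.8% of mt-Nd6 and 27.3% of mt-Nd5. Tails under 20 nt made up 10.6% of mt-Nd5 reads, most of them in WT 2 and KO 2, which had 11 such reads each against 1 in WT 1 and 3 in KO 1.

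The genotypes were then compared gene by gene with limma on log2 of the median tail length of the 1935 genes. None of the 6 complex I genes passed an adjusted p of 0.05, and none of the 1935 genes did (0% called; 45 genes, or 2.33%, had an unadjusted p under 0.05, and 0 of the 6). The log2 changes, KO against WT, were 0.09 for mt-Nd1 (SE 0.10), 0.04 for mt-Nd2 (SE 0.12), 0.06 for mt-Nd3 (SE 0.12), 0.05 for mt-Nd4 (SE 0.11), -0.04 for mt-Nd5 (SE 0.17) and 0.10 for mt-Nd6 (SE 0.16). The limma adjusted p was 0.9998 for each, and over the alternatives it ranged from 0.749 to 0.99996. The median log2 change over the 6 genes was 0.06, against 0.01 over all genes tested, and 5 of 6 had a value above 0, as did 51.8% of all genes tested. The value moved with the library left out: the median was 0.00578 without WT 1 and 0.12 without WT 2, and without WT 1 the values of mt-Nd3 and mt-Nd4 were -0.0266 and -0.00850.

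Over the 2 libraries of each genotype, WT first, the mean of the medians was 44.4 nt ± 2.51 and 47.3 nt ± 1.23 (SD) for mt-Nd1, 42.4 nt ± 0.863 and 43.6 nt ± 0.272 for mt-Nd2, and 37.8 nt ± 1.21 and 40.6 nt ± 2.77 for mt-Nd6. These 3 were the complex I genes with both KO libraries above both WT libraries, a pattern that 14.7% of all genes tested had; none had the opposite pattern, which 11.8% of all genes had. The genotypes overlapped for mt-Nd3 (51.7 nt ± 4.58 and 54.0 nt ± 0.226), mt-Nd4 (48.6 nt ± 2.75 and 50.3 nt ± 0.643) and mt-Nd5 (43.7 nt ± 0.622 and 42.5 nt ± 3.46). The interquartile range over reads was lower in both KO libraries than in both WT libraries for mt-Nd1 and mt-Nd2, that is 2 of 6, against 17.4% of all genes tested, and in 0 of 6 it was higher in both, against 14.1%.

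The libraries also differed within a genotype, and there the complex I genes and the remaining genes did not move alike. WT 2 had longer tails than WT 1 in 6 of 6 complex I genes, with a median log2 difference of 0.09, and in 65.2% of the 1924 genes without the mt- prefix, also with a median of 0.09. KO 2 had longer tails than KO 1 in 5 of 6 complex I genes, with a median log2 difference of 0.02, and in 5 of 5 other mitochondrially encoded genes, with 0.05. In the genes without the prefix the same pair had a median of -0.10, and 25.2% were longer in KO 2. This difference between the sets was not tested, since each value rests on 1 pair of libraries.

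The share of short tails was compared in the same way, on the log2 odds of a tail under 30 nt. None of the 6 complex I genes and none of the 1935 genes passed (limma, 0% called; 91 genes, or 4.7%, had an unadjusted p under 0.05, and 0 of the 6). mt-Nd1 had 10.2, 9.64, 3.89 and 6.18% short tails. It was the one complex I gene with both KO libraries below both WT libraries, as 21% of all genes tested were; 0 of 6 had both KO libraries above, against 6.15%. Its log2 odds changed by -1.09 (SE 0.64, limma adjusted p = 0.954; 0.622 to 0.9997 over the alternatives). The median over all genes tested was -0.42, and over all reads KO 1 had the lowest share of short tails, 1.55%, against 2.35% in WT 1, 3.02% in WT 2 and 2.75% in KO 2. Over the 6 genes the median change in log2 odds was -0.25, against -0.42 over all genes tested. In KO 5 of the 6 were lower, and 30.4% of all genes tested were higher. In percentage points the median difference over the 6 genes was -2.01. Leaving out WT 2 gave -0.882 percentage points, and leaving out any other library gave values from -2.89 to -1.44. The part of the library-wide shares in these values was not tested.

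Read number served as the measure of abundance of RNA that passed the poly(A) selection. Whether that selection took short and long tails alike was not tested. Each direct RNA read is 1 molecule, so RPM is a share of molecules sequenced and was not divided by transcript length. In bulk cells, fewer cells of a type and less RNA per cell cannot be told apart. The complex I messenger RNAs made up 0.597, 0.662, 0.672 and 0.867% of reads. The other mitochondrially encoded messenger RNAs were 3.56, 2.57, 2.58 and 2.93% of reads. Both shares count reads under mt- symbols only. A further 5301 reads named Gm28437 lay on transcripts shared with mt-Co3, and 4736 named Gm10925 on transcripts shared with mt-Atp6. On those shared with mt-Nd3, Gm28438 had 268 reads.

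mt-Nd1 held 48.0% of the complex I reads of all libraries, mt-Nd4 25.1%, mt-Nd3 12.8% and mt-Nd2 10.04%, while mt-Nd6 and mt-Nd5 had 292 and 245 of the 13270 reads. In RPM the mean over libraries was 3331 ± 677 (SD, n = 4) for mt-Nd1 and 1762 ± 238 (SD, n = 4) for mt-Nd4. It was 872 RPM ± 298 (SD, n = 4) for mt-Nd3 and 732 RPM ± 155 (SD, n = 4) for mt-Nd2. mt-Nd6 had 159 RPM ± 42.6 (SD, n = 4) and mt-Nd5 had 137 RPM ± 39.5 (SD, n = 4). The levels fell into steps: over the 4 libraries the ranges of mt-Nd1, of mt-Nd4, of the pair mt-Nd3 and mt-Nd2, and of the pair mt-Nd6 and mt-Nd5 did not overlap, while the members of each pair did. mt-Nd4l, with 2 reads in all, was not placed in this order. All except mt-Nd6 are known to be cut from the same precursor. mt-Nd1 exceeded mt-Nd4 by a ratio of 1.89 in mean RPM, mt-Nd4 exceeded mt-Nd3 by 2.02 and mt-Nd2 exceeded mt-Nd6 by 4.59.

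**Figure D4:**
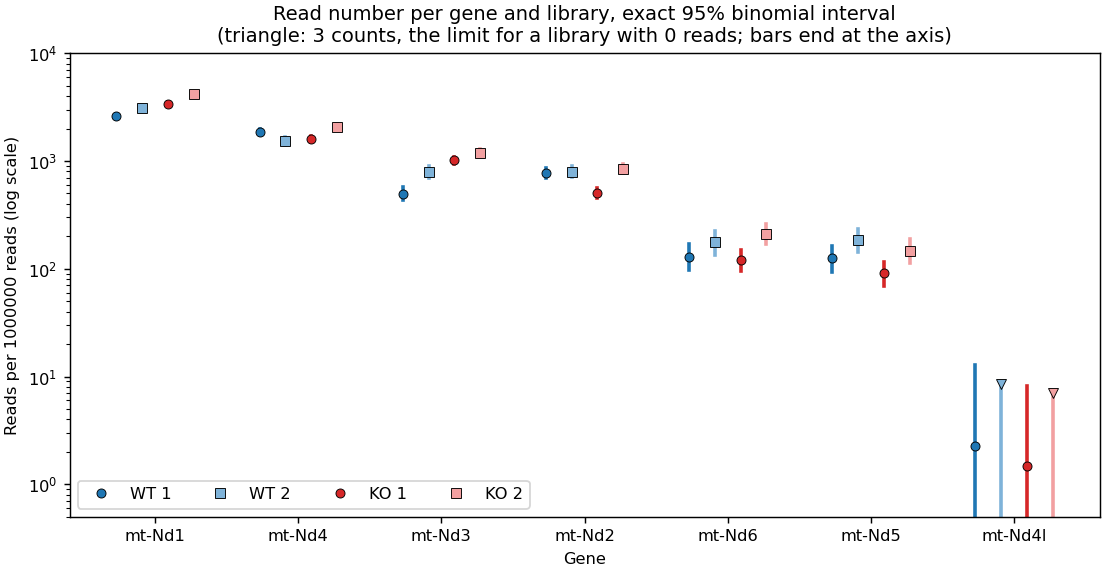
Reads per 1000000 reads (y axis, log scale) of each complex I gene (x axis) in each library, with exact 95% binomial intervals; triangles give the limit of 3 counts for libraries with 0 reads. mt-Nd1 lies highest at 2589 to 4216 RPM, mt-Nd5 and mt-Nd6 lie between 90.7 and 212 RPM, and mt-Nd4l has at most 1 read in a library.

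mt-Nd1 had 1138, 1100, 2314 and 1813 reads, which are 2589, 3133, 3387 and 4216 RPM. mt-Nd3 had 219, 278, 691 and 511 reads in the same order, or 498, 792, 1011 and 1188 RPM. In both genes the KO libraries lay above the WT libraries, which held for 25.2% of the 4815 genes tested for read number, and for 20.5% after median-of-ratios scaling, where mt-Nd1 and mt-Nd3 kept it. The KO to WT ratio of mean RPM was 1.33 for mt-Nd1 and 1.71 for mt-Nd3.

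mt-Nd2 had 776, 797, 505 and 851 RPM. KO 1 was low and KO 2 was the highest of the 4, so the genotypes overlapped. mt-Nd4 had 1852, 1535, 1607 and 2056 RPM in the same order. mt-Nd5 had 125, 185.1, 90.7 and 147 RPM, and mt-Nd6 had 130, 177, 120 and 212 RPM; in each of these genes, too, the genotypes overlapped. No complex I gene had both KO libraries below both WT libraries, which 15.5% of all genes had, or 20% after scaling.

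Tested with limma and voom weights after that scaling, 0 of 6 complex I genes passed an adjusted p of 0.05, against 1 of 4815 genes tested, or 0.0208%, which was Mov10 (log2 change -5.08, limma adjusted p = 0.0335). With 1 KO read in all, the size of that change depends on the 0.5 reads added. The Mov10 call rested on the settings. With size factors taken only from genes past the read filter, an alternative chosen after seeing the data, the limma adjusted p was 0.0553. Without voom weights it was 0.151. The limma adjusted p was 2.06e-06 with no filter on low read numbers and 9.35e-05 with the replicate number as a block. It was 0.0106 with scaling by total reads and 0.0110 with scaling by reads of genes not mitochondrially encoded. The log2 change of Mov10 was -3.94 with KO 1 left out and -6.17 with KO 2 left out. mt-Nd3 came closest, with a log2 change of 0.69 (SE 0.24, limma adjusted p = 0.290); its unadjusted p of 0.00938 was 1 of 500 under 0.05 among all genes, or 10.4%. Its value was above 0 under each alternative, from 0.48 to 0.93, and the adjusted p ranged from 0.00288 to 0.993. The lowest came from leaving out WT 2, which leaves WT 1 as the only wild-type library and takes its variation from the other genotype. Without WT 1 the log2 change was 0.48 with a limma adjusted p of 0.394.

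The other log2 changes in read number were 0.30 for mt-Nd1 (SE 0.20, limma adjusted p = 0.644), -0.39 for mt-Nd2 (SE 0.26, 0.641), -0.01 for mt-Nd4 (SE 0.23, 0.998), -0.53 for mt-Nd5 (SE 0.31, 0.580) and -0.06 for mt-Nd6 (SE 0.31, 0.965). The values of mt-Nd1, mt-Nd3 and mt-Nd5 kept their sign under every alternative run, and those of mt-Nd2, mt-Nd4 and mt-Nd6 did not. When libraries were scaled to their totals, the median over all genes was 0.11, and mt-Nd4 and mt-Nd6 had 0.0793 and 0.0479, both below that median. The median over the 6 genes was -0.03, against 0.00 over all genes tested, with 2 of 6 above 0. It was above 0 with scaling to totals (0.06) and without KO 1 (0.29) or WT 1 (0.0314), and it was -0.27 without KO 2.

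**Figure D5:**
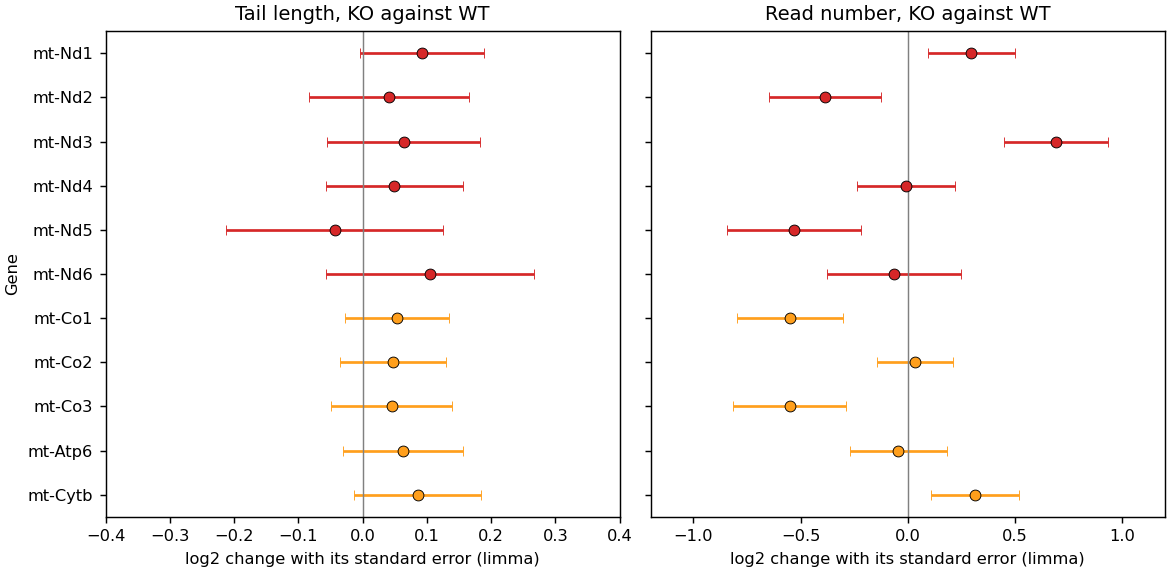
Log2 change of KO against WT (x axis) with its standard error from limma, for tail length and read number, for each mitochondrially encoded gene tested (y axis); complex I genes are the upper 6. Tail length values lie between -0.04 and 0.10 with standard errors of similar or larger size, and read number values range from -0.53 (mt-Nd5) to 0.69 (mt-Nd3); none passed an adjusted p of 0.05.

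The 5 other mitochondrially encoded genes did not pass either. Their log2 changes in tail length were all above 0, from 0.04 for mt-Co3 to 0.09 for mt-Cytb. In read number mt-Co1 and mt-Co3, subunits of cytochrome c oxidase, both had -0.55 (limma adjusted p = 0.450 and 0.481). These values came with high levels in WT 1 alone, at 15519 RPM for mt-Co1 and 5854 RPM for mt-Co3. The genotypes overlapped in both genes, and without WT 1 the log2 changes were 0.0107 and 0.0391. Without WT 2 they were -1.09 and -1.11, and both genes passed (limma adjusted p = 2.69e-10 and 3.23e-08); mt-Co1 also passed with no filter on low read numbers (limma adjusted p = 0.0472). Of the others, mt-Cytb, a subunit of complex III, had 0.31, mt-Co2 had 0.03 and mt-Atp6, a subunit of ATP synthase, had -0.04.

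Within the reads under mt- symbols, the complex I genes made up 14.4, 20.5, 20.7 and 22.8%. WT 1 was low, and the other 3 libraries were close together. Not counted were reads under the Gm symbols on shared transcripts, such as 5301 of Gm28437, 4737 of Gm10925 and 268 of Gm28438. Their part in these shares was not computed. In WT 1 the complex I genes had their lowest summed level, 5972 RPM, and mt-Co1, mt-Co3 and mt-Atp6 had their highest. mt-Co1 had 15519, 8464, 7492 and 9553 RPM, mt-Co3 had 5854, 3056, 2870 and 3407 RPM, and mt-Atp6 had 4466, 2996, 3781 and 3872 RPM. The share of mt-Nd3 alone was 1.198, 2.45, 3.11 and 3.13%. WT 1 and KO 2 thus held the extremes for the complex I genes in the median tail length of their pooled reads. They also held them in share of reads under mt- symbols and in RPM of mt-Nd1 and mt-Nd3.

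The nuclear genes that work with these messenger RNAs were examined list by list. Of 7 nuclear core subunits of complex I, all 7 were tested for tail length and read number, and 0 passed in either direction. Their gene medians had a median of 88.5, 112.5, 101.4 and 100.2 nt, so the nuclear and mitochondrial messenger RNAs of the same complex carried tails of different length: the lowest nuclear core value in any library was 78.5 nt (Ndufv2 in WT 1), above the highest complex I value of 55.0 nt. Ndufs1, the largest subunit of the NADH-oxidizing module, had the smallest unadjusted p of this list for both measures, with a log2 change of 0.26 in tail length (SE 0.19, limma adjusted p = 0.9998) and of -0.55 in read number (SE 0.33, limma adjusted p = 0.580).

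Of 29 accessory subunits all were tested and 0 passed for tail length, read number or short tails. Their median log2 change in read number was -0.22, with 26 of 29 below 0 (all genes tested 0.00, with 50.0% above 0), while the nuclear core subunits had the same median of -0.22, with 4 of 7 below 0. The complex I genes of the mitochondrial genome had -0.03, with 4 of 6 below 0. Ndufb4 had the smallest unadjusted p of this list for read number, at 460, 290, 288 and 233 RPM (log2 change -0.60, SE 0.29, limma adjusted p = 0.492), followed by Ndufb11 at 514, 356, 332 and 295 RPM. For tail length it was Ndufb9, with medians of 83.8, 94.7, 105.0 and 106.9 nt (log2 change 0.25, SE 0.13, limma adjusted p = 0.9998). In Ndufb5 and Ndufs4 the share of short tails differed by -3.69 and -3.76 percentage points, KO minus WT (limma adjusted p = 0.954 for both).

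Of 16 assembly factors, 11 had enough reads for the test of read number and 2 for that of tail length, and 0 passed. Ndufaf8 had 29, 26, 74 and 77 reads (log2 change 0.84, SE 0.34, limma adjusted p = 0.395). Of 27 genes for the synthesis, cutting, tailing and decay of mitochondrial RNA, 19 were tested for read number and 5 for tail length, and 0 passed. The median log2 change in read number over the 19 was 0.19, with 13 above 0 (all genes tested 0.00, with 50.0% above 0). Trmt10c, a subunit of the mitochondrial RNase P that cuts at tRNAs, had 15, 14, 12 and 7 reads in WT 1, WT 2, KO 1 and KO 2 (log2 change -1.18, SE 0.48, limma adjusted p = 0.403). Prorp, the nuclease subunit of the same enzyme, had median tails of 96.0, 88.5, 127.5 and 109.9 nt on 23 to 52 reads (log2 change 0.36, SE 0.22, limma adjusted p = 0.9998). Rexo2, which degrades short RNA fragments in mitochondria, had median tails of 85.9, 48.3, 88.4 and 67.4 nt on 24 to 63 reads (log2 change 0.26, SE 0.19, limma adjusted p = 0.9998).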

How the data were processed

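Per the labels' protocols, total RNA was selected on oligo(dT) beads, made into direct RNA libraries with barcoded adapters and sequenced on a nanopore device. The submitters' processing notes name minimap2 2.20; the tail length tool, genome build and read filters are not given in the sources used here. The authors' deposited table gives 1 tail length in nt, an estimate and not a count, for each of 1903922 reads, with a transcript and a symbol; 3 reads without a tail above 0 were left out.

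Each gene was summarised once per library (numpy 2.4.6, pandas 2.3.3, scipy 1.17.1). limma 3.58.1 in R 4.3.3 tested log2 median tail length and the log2 odds of tails under 30 nt (0.5 reads added) where every library had 20 or more reads of the gene, and, through voom, read numbers counted here (mean of at least 10 reads, 0.5 added, median-of-ratios scaling over genes with reads in every library). P-values were adjusted by Benjamini-Hochberg over all genes tested. The scripts were tested on simulated data. Intervals cover counting error only.

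The genes and lists were chosen with earlier results of these data known. Named genes were the complex I genes, Mov10, the other mitochondrially encoded genes, the 5 nearest tail profiles, and up to 2 genes per list with the smallest p. Alternatives changed the summary, filters, weights, scaling, grouping and replicate block, or left out each library. mt-Atp8 was not analysed here, since no read used carried that symbol. Gene IDs came from a table of mouse gene names, in which all 7 complex I symbols matched.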

Additional observations from a re-analysis of the deposited data

How the results depend on the processing

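With the replicate number as a block, the calls were 65 for read number (1 without it), 0 for tail length and 0 for short tails, and no complex I gene passed, while mt-Co1 did in read number (limma adjusted p = 0.0341). Across genes, same-numbered libraries did not deviate together (r = 0.0135 for tail length over 1935 genes and 0.0155 for read number over 4815 genes). Noise in genes with few reads weakens such an r, and a shift shared by all genes does not enter it. It therefore cannot decide whether the numbers pair the libraries. The main tests used no pairing, and the cause of the change in calls was not tested. The calls for read number were 7 with scaling by total reads or by reads of genes not mitochondrially encoded, 96 with no filter on low read numbers, and 0 with log2 RPM in place of voom, with reads grouped by transcript, or with size factors from genes past the read filter, an alternative chosen after seeing the data. They were 90 without WT 1, 456 without WT 2 and 0 without KO 1 or KO 2; for tail length they were 2 without WT 2 and 0 without any other library.

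The complex I median log2 change ranged from 0.00578 to 0.12 for tail length and from -0.27 to 0.29 for read number with a library left out. The median difference in short tails was -0.205 percentage points under 20 nt and -5.60 under 50 nt, where the class itself holds fewer or more reads, and ranged from -2.89 to -0.882 with a library left out. Of the values of single complex I genes under alternatives, 157 kept direction and call, 1 passed the threshold (mt-Nd3 read number without WT 2) and 22 changed sign. In read number mt-Nd4 had 0.0793 with scaling by total reads, 0.0762 with the other scaling and 0.00432 without voom, and mt-Nd6 had 0.0479 and 0.0437 with the scalings. In short tails under 20 nt mt-Nd3 had 0.14 and mt-Nd4 0.11.

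The other changes of sign came from leaving out a library. For tail length the ranges were -0.0266 to 0.15 (mt-Nd3), -0.00850 to 0.11 (mt-Nd4) and -0.13 to 0.0393 (mt-Nd5). For read number they were -0.71 to 0.0168 (mt-Nd2), -0.24 to 0.25 (mt-Nd4) and -0.40 to 0.39 (mt-Nd6). For the log2 odds of short tails they were -0.81 to 0.0387 (mt-Nd2), -0.65 to 0.43 (mt-Nd3), -0.66 to 0.21 (mt-Nd4), -0.20 to 0.39 (mt-Nd5) and -0.78 to 0.22 (mt-Nd6). Depth was lowest for mt-Nd5 and mt-Nd6, with 55 to 91 reads per library; the size of change detectable at that depth was not tested.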

Other observations

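Ratios of read numbers between mitochondrially encoded genes, chosen once the values had been seen, need no scaling of libraries. The ratio of mt-Nd3 to mt-Nd2 was 0.642, 0.993, 2.00 and 1.40 in WT 1, WT 2, KO 1 and KO 2. That of mt-Nd1 to mt-Nd2 was 3.34, 3.93, 6.71 and 4.95 in the same order, and that of mt-Nd6 to mt-Nd5 was 1.04, 0.954, 1.32 and 1.44. The last rests on 57, 62, 82 and 91 reads of mt-Nd6 and 55, 65, 62 and 63 of mt-Nd5. Reads under mt-Nd6 cannot be told apart from reads of the opposite strand, on which its neighbour mt-Nd5 lies. The ratio of mt-Nd1 to mt-Nd4 was 1.40, 2.04, 2.11 and 2.05, so that WT 2 was close to the KO libraries. The ratio of mt-Nd4 to mt-Nd5 was 14.8, 8.29, 17.7 and 14.0, with overlapping genotypes. The ratio of mt-Nd1 to mt-Co1 was 0.167, 0.370, 0.452 and 0.441, and that of mt-Nd3 to mt-Co3 was 0.0851, 0.259, 0.352 and 0.349, both lowest in WT 1. These are the 7 ratios computed, from reads under the genes' own symbols only. No test was made on them, and the share of all gene pairs with such differences was not computed.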
